A study of Mus musculus with 10 samples.

Results

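Csf1r, Cx3cr1, C1qa, C1qb, C1qc, Aif1, Trem2, Tyrobp and Mrc1 are 9 genes that, in brain tissue, are transcribed chiefly by microglia and other macrophages. They were matched by symbol among the 56748 gene identifiers of an RNA-seq count table, and all 9 passed the filter on low counts that left 18163 genes for testing. The counts came from mouse cortex at embryonic stage E12.5, with 5 libraries of Emx2 KO tissue and 5 of WT tissue. The labels give the knockout only as "Emx2 KO" and name no strain, allele, Cre driver or sex, and they do not say whether each library is a separate embryo. The p-values below therefore reflect variation among the libraries at hand, some of which may be technical. The series asks what Emx2, a homeobox transcription factor of the dorsal telencephalon, does in the developing cortex.

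Microglia are the resident macrophages of the brain. They descend from yolk sac progenitors that enter the neural tube before the cortex has formed its layers, and they depend on signalling through the receptor CSF1R. Related macrophages settle in the meninges, the perivascular space and the choroid plexus, and these border macrophages are known for the mannose receptor that Mrc1 encodes, which early microglial progenitors also carry. In a whole cortex all of these cells are a small minority, so their transcripts are scarce in bulk RNA. Fewer cells of a type and less RNA per cell cannot be told apart in such data.

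Library totals ran from 13794221 to 30902451 counts in Emx2 KO and from 9720840 to 35674113 counts in WT. They fell into a large class above 20000000 counts (3 Emx2 KO and 2 WT libraries) and a small class (2 Emx2 KO and 3 WT libraries). Sample titles close with 1 of 3 codes. Within a code the genotypes differ in size class, and within a size class they share no code. Code, size and genotype therefore cannot be told apart fully, and the fits of 1 size class or 1 code below are not clean controls for either. Transcripts of Emx2 itself averaged 123 ± 21.1 CPM (counts scaled to a common library total) in Emx2 KO and 186 ± 12.8 CPM in WT (SD, n = 5 each), and all 5 Emx2 KO libraries lay below the lowest WT library. The log2 fold change was -0.59 ± 0.11 (SE, edgeR quasi-likelihood test, adjusted p = 0.00271). In code 241022 alone, with 2 libraries per genotype, it was -0.49 and did not pass (edgeR adjusted p = 0.0653). Genes of the cortical wall were abundant in every library, with Nes at 1228 ± 70.4 CPM in Emx2 KO and 1006 ± 24.4 CPM in WT. A list of 12 such genes summed to 6326 ± 186 CPM in Emx2 KO and 5046 ± 114 CPM in WT, without overlap. Of these 12, 9 passed as higher in Emx2 KO (edgeR adjusted p under 0.05), against 12.9% of all genes. The part of this shift in the CPM of scarcer transcripts was not tested. A list of 12 choroid plexus genes summed to 86.0 ± 14.1 CPM in Emx2 KO and 316 ± 19.9 CPM in WT, without overlap between the genotypes.

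Of the 9 genes, Mrc1 alone passed the test, at a lower level in Emx2 KO (edgeR, Benjamini-Hochberg adjusted over all genes, adjusted p under 0.05). Among all genes tested 9.33% were lower, 12.9% were higher and 22.2% differed in either direction at the same threshold, so 1 of 9 is near the background. All 9 log2 fold changes, Emx2 KO over WT, were negative, against 51.1% of all genes tested. The 9 genes were read in the same libraries and varied together, so they are not 9 independent signs. Cx3cr1 (-0.01 ± 0.11, SE) and Aif1 (-0.06 ± 0.24, SE) differed by less than their error. In code 241022 alone, 6 of the 9 were negative. With all libraries the median of the 9 was -0.24, against -0.01 over all genes tested. At an unadjusted p under 0.05, C1qa, Trem2 and Mrc1 were lower, and 15.5% of all genes were. For none of the 9 did the 2 groups of libraries separate completely, which happened for 16.7% of all genes.

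**Figure D1:**
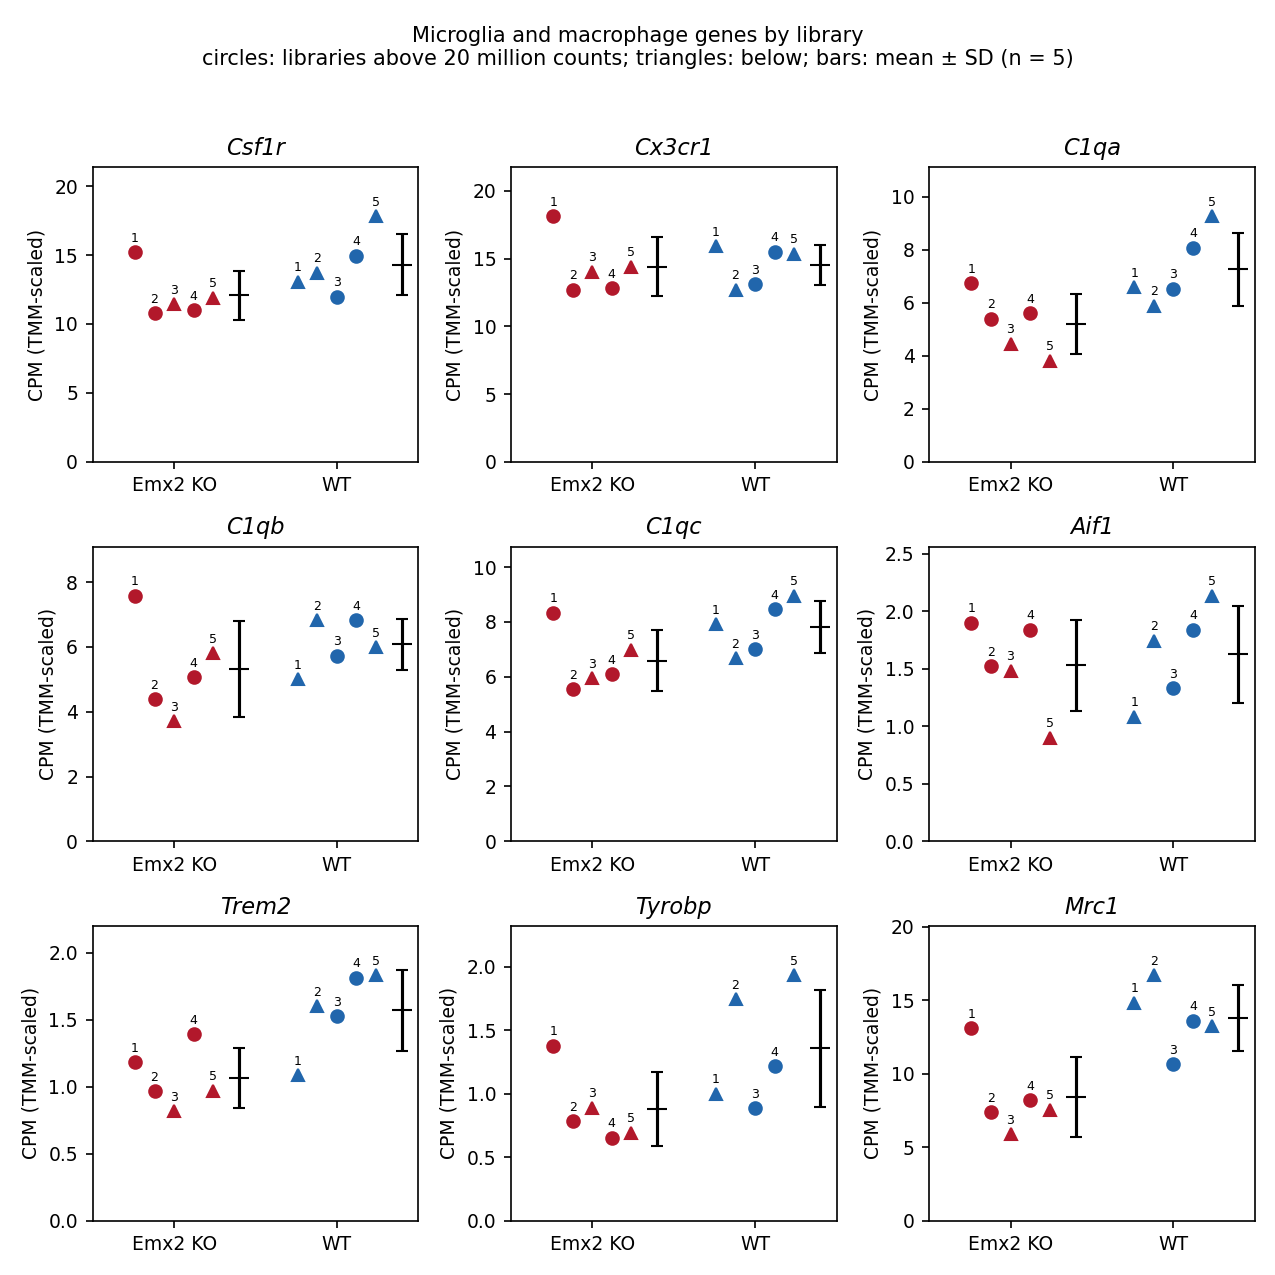
CPM on TMM-scaled library totals (vertical axis, linear from 0) for each of the 9 genes, with Emx2 KO libraries in red on the left and WT libraries in blue on the right, numbered by replicate. Circles are libraries above 20000000 counts, triangles are those below, and black bars give the mean ± SD (n = 5). Emx2 KO replicate 1 is the highest red point for 8 of the 9 genes, and for Mrc1 the other 4 red points lie below every blue point.

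Mrc1 encodes the macrophage mannose receptor, an endocytic receptor for glycans with terminal mannose. Its level was 13.1, 7.40, 5.87, 8.18 and 7.54 CPM in Emx2 KO replicates 1 to 5, against 14.8, 16.7, 10.6, 13.6 and 13.2 CPM in WT replicates 1 to 5. Replicates 2 to 5 of Emx2 KO lay below every WT library, and Emx2 KO replicate 1 lay inside the WT range. The means were 8.42 ± 2.75 CPM in Emx2 KO and 13.8 ± 2.23 CPM in WT (SD, n = 5 each), resting on 79 to 458 reads per library. The log2 fold change was -0.69 ± 0.20 (SE, 95% interval -1.12 to -0.26, edgeR adjusted p = 0.0262). It was -0.34 in the large libraries alone, where it did not pass (edgeR adjusted p = 0.447), and -1.15 in the small ones (edgeR adjusted p = 0.0221). Mrc1 no longer passed when 1 of 7 libraries was left out, namely any of Emx2 KO replicates 2, 4 and 5 and WT replicates 1, 2, 4 and 5 (edgeR adjusted p of 0.0516 to 0.0659). Its log2 fold change was negative in all 25 alternative fits.

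Cx3cr1, the receptor through which microglia respond to neuronal fractalkine, stood at nearly the same level in both genotypes. Emx2 KO replicates 1 to 5 had 18.1, 12.7, 14.0, 12.8 and 14.4 CPM, and WT replicates 1 to 5 had 15.9, 12.7, 13.1, 15.5 and 15.4 CPM. The ranges lay almost on top of each other apart from Emx2 KO replicate 1, the highest of the 10. The means were 14.4 ± 2.2 CPM in Emx2 KO and 14.5 ± 1.49 CPM in WT (SD, n = 5 each). Its log2 fold change was -0.01 ± 0.11, and the 95% interval of -0.25 to 0.23 leaves room for a modest difference in either direction (edgeR adjusted p = 0.983).

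The ratio of Mrc1 to Cx3cr1 reads in the same library separated the genotypes. There were 0.723, 0.582, 0.418, 0.639 and 0.524 Mrc1 reads per Cx3cr1 read in Emx2 KO replicates 1 to 5, against 0.932, 1.31, 0.812, 0.877 and 0.861 in WT replicates 1 to 5. Every Emx2 KO library, replicate 1 included, was below every WT library. The means were 0.577 ± 0.115 in Emx2 KO and 0.959 ± 0.203 in WT (SD, n = 5 each), a log2 ratio of -0.73. Large libraries alone gave a log2 ratio of -0.38, small libraries -1.14, and the values were -0.78 and -0.84 within the codes 241022 and 14922. This pair was chosen after its values had been seen, so the ratio is a description and carries no test. Against Csf1r the separation was not complete, with 0.688 ± 0.129 Mrc1 reads per Csf1r read in Emx2 KO and 0.979 ± 0.193 in WT.

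**Figure D2:**
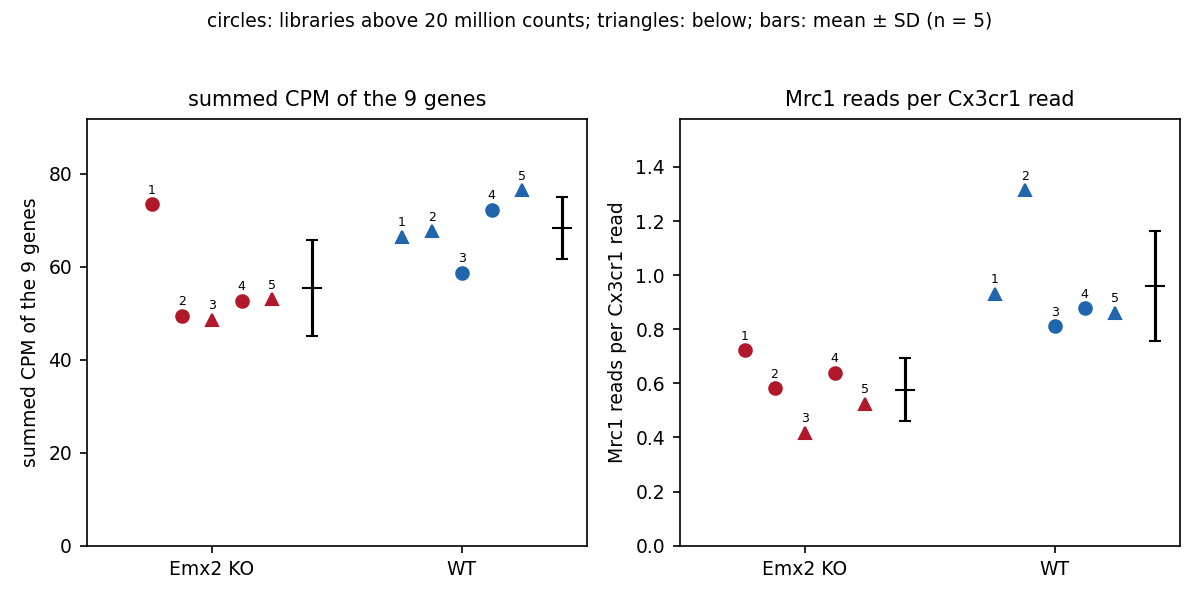
Left, summed CPM of the 9 genes per library; right, Mrc1 reads per Cx3cr1 read, both on linear axes from 0, with Emx2 KO in red left of WT in blue, circles and triangles for libraries above and below 20000000 counts, and bars for the mean ± SD (n = 5). On the left Emx2 KO replicate 1, at 73.5 CPM, lies among the WT libraries and the other Emx2 KO libraries below them; on the right the highest Emx2 KO value, 0.723, is below the lowest WT value, 0.812.

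The promoters of these 2 genes are shown because they stand at opposite ends of the 9 in fold change. The 200 bases before each annotated start are printed 5′ to 3′ on the gene's own strand from RefSeq (GRCm38.p6), for Mrc1 chr2:14229214-14229413 (plus strand) and for Cx3cr1 chr9:120068297-120068496 (minus strand). Capitals mark TTCCTC, the reverse complement of GAGGAA, a core sequence recognised by the myeloid transcription factor PU.1.
Mrc1: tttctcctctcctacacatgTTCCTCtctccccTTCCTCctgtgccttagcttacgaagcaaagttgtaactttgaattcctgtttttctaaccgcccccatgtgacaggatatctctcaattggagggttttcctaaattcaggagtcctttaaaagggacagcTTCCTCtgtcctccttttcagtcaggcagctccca
Cx3cr1: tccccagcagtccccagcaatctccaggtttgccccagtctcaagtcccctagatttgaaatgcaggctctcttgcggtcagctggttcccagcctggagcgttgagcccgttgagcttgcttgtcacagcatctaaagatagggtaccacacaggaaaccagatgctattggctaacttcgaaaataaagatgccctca
Windows of 250 bases before to 50 bases after the start were searched on both strands for GAGGAA in the 6 genes that matched the promoter table, namely Cx3cr1, C1qb, C1qc, Aif1, Trem2 and Mrc1. The letters occurred in 5 of these 6 windows, 3 times in Mrc1 and not in Cx3cr1, and in 28.3% of all 32851 windows of that length. Spi1, which encodes PU.1, stood at 1.53 ± 0.500 CPM in Emx2 KO and 1.73 ± 0.853 CPM in WT (log2 fold change -0.08 ± 0.33, edgeR adjusted p = 0.904).

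Csf1r encodes the receptor for the growth factors CSF1 and IL-34, on which microglia depend for survival. It had 15.2, 10.8, 11.4, 11.0 and 11.9 CPM in Emx2 KO replicates 1 to 5, against 13.1, 13.7, 12, 14.9 and 17.8 CPM in WT replicates 1 to 5. Emx2 KO replicates 2 to 5 lay close together and below the lowest WT library, while replicate 1 was inside the WT range. The log2 fold change of -0.23 ± 0.12 did not pass with all libraries (SE, edgeR adjusted p = 0.212) and was -0.34 without Emx2 KO replicate 1 (edgeR adjusted p = 0.0487). It was -0.15 without WT replicate 5 (edgeR adjusted p = 0.448), -0.12 in the large libraries alone and -0.04 in code 241022 alone. The exons of Csf1r overlap those of Hmgxb3 on the opposite strand by 873 bases in the GENCODE annotation of GRCm38. Hmgxb3 was higher in Emx2 KO, at 34.5 ± 1.15 CPM against 29.8 ± 1.13 CPM in WT (log2 fold change 0.21, edgeR adjusted p = 0.00876). The strand setting of the counting is not given, so how reads of the shared bases were assigned is unknown.

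C1qa, C1qb and C1qc encode the 3 chains of C1q, the recognition molecule of the classical complement pathway, which tags synapses and debris for uptake. They lie next to each other on chromosome 4. C1qa had 6.73, 5.39, 4.45, 5.61 and 3.81 CPM in Emx2 KO replicates 1 to 5, against 6.58, 5.88, 6.54, 8.08 and 9.26 CPM in WT replicates 1 to 5. Again replicates 2 to 5 of Emx2 KO were below all WT libraries and replicate 1 was not. C1qa had a log2 fold change of -0.46 ± 0.17 (95% interval -0.83 to -0.10, edgeR adjusted p = 0.07). It was -0.58 without Emx2 KO replicate 1 (edgeR adjusted p = 0.0276) and -0.37 without WT replicate 5 (edgeR adjusted p = 0.166). The large libraries alone gave -0.30 (edgeR adjusted p = 0.264) and code 241022 alone -0.03 (edgeR adjusted p = 0.957), while code 14922 alone gave -0.83 (edgeR adjusted p = 0.0508).

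The other C1q chains showed smaller differences. C1qb ranged from 3.71 to 7.58 CPM in Emx2 KO and from 5.0 to 6.83 CPM in WT, and its log2 fold change was -0.19 ± 0.18 (edgeR adjusted p = 0.52). C1qc ranged from 5.54 to 8.34 CPM in Emx2 KO and from 6.68 to 8.95 CPM in WT, with -0.24 ± 0.13 (edgeR adjusted p = 0.241). C1qb stood in a similar proportion to C1qc in both genotypes, with 0.798 ± 0.106 C1qb reads per C1qc read in Emx2 KO and 0.790 ± 0.153 in WT. For C1qa the figures were 0.799 ± 0.167 reads per C1qc read in Emx2 KO and 0.927 ± 0.0767 in WT, with overlap.

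Trem2 encodes a lipid-sensing receptor and Tyrobp (also called DAP12) the adaptor through which it signals. Trem2 had 1.18, 0.967, 0.817, 1.39 and 0.969 CPM in Emx2 KO replicates 1 to 5, against 1.08, 1.6, 1.52, 1.81 and 1.83 CPM in WT replicates 1 to 5. Of the WT libraries, replicate 1 alone was inside the Emx2 KO range. The log2 fold change was -0.54 ± 0.21 (95% interval -1.0 to -0.08, edgeR adjusted p = 0.0881), and it did not pass in any of 25 alternative fits. Tyrobp ranged from 0.655 to 1.38 CPM in Emx2 KO and from 0.886 to 1.93 CPM in WT, with -0.55 ± 0.29 (edgeR adjusted p = 0.212). Both rest on few reads, 11 to 61 per library for Trem2 and 10 to 42 for Tyrobp.

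Aif1 encodes IBA1, a calcium-binding protein of the actin cytoskeleton that is the usual histological stain for microglia. It ranged from 0.900 to 1.90 CPM in Emx2 KO and from 1.08 to 2.14 CPM in WT, on 13 to 62 reads per library. The log2 fold change was -0.06 ± 0.24 with a 95% interval of -0.58 to 0.47 (edgeR adjusted p = 0.914).

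**Figure D3:**
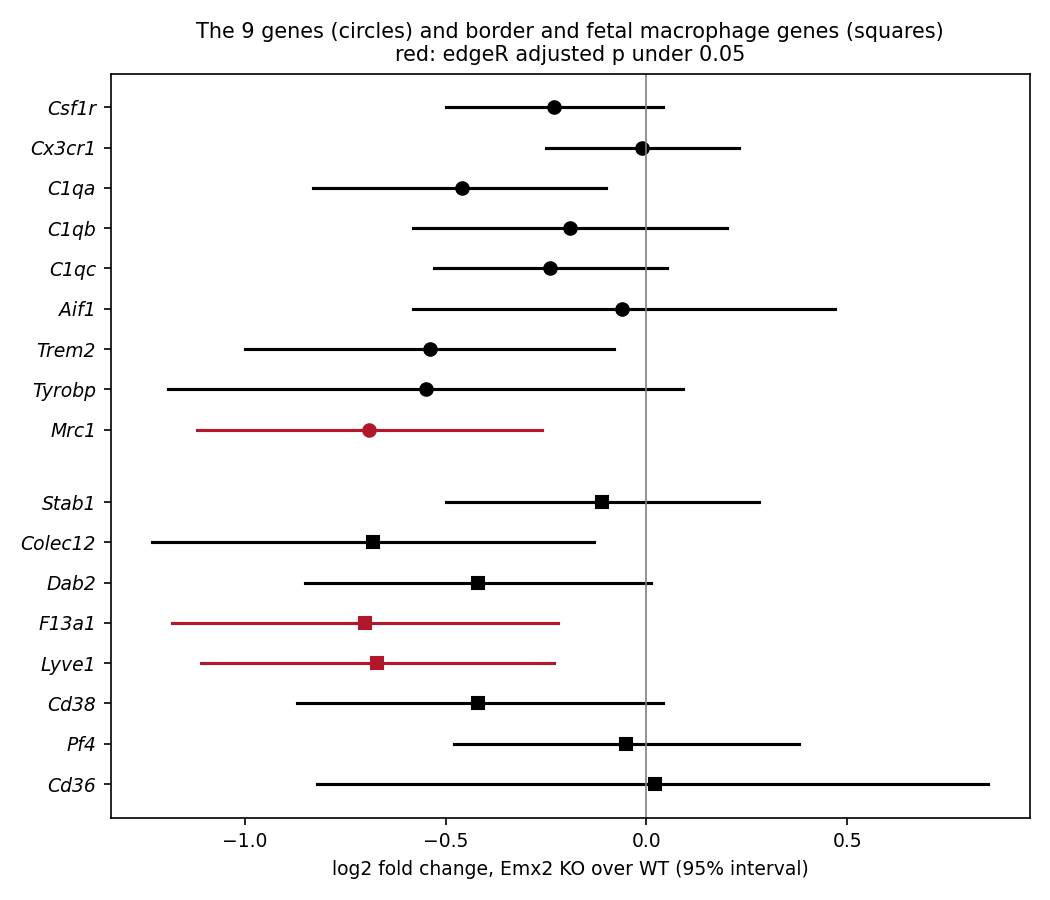
Log2 fold change, Emx2 KO over WT (horizontal axis), with its 95% interval from the edgeR fit for the 9 genes (circles, top) and the 8 tested border and fetal macrophage genes (squares, bottom), n = 5 libraries per genotype. Red marks an adjusted p under 0.05, which Mrc1, F13a1 and Lyve1 reached, and 16 of the 17 points lie left of 0.

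Scaled by exon length, the order of mean levels was the same in both genotypes. From high to low it ran C1qa, C1qb, C1qc, Cx3cr1, Csf1r, Mrc1, Tyrobp, Aif1 and Trem2. C1qa had 5.0 ± 1.08 CPM per kilobase in Emx2 KO and 6.99 ± 1.32 in WT, and Trem2 had 0.215 ± 0.0453 in Emx2 KO and 0.317 ± 0.0612 in WT. Most neighbours in this order overlapped between libraries. Mrc1 and Tyrobp were level in Emx2 KO, at 1.32 CPM per kilobase each. Mrc1 was above Tyrobp in 2 of 5 Emx2 KO libraries and 4 of 5 WT libraries. The ranges of Aif1 and Trem2 were apart in both genotypes, and those of Cx3cr1 and Csf1r were apart in Emx2 KO but not in WT. Within the transcripts of the 9 genes, Mrc1 made up 14.9% ± 2.09 of reads in Emx2 KO and 20.2% ± 3.14 in WT, with overlap. Cx3cr1 made up 26.1% ± 1.88 in Emx2 KO and 21.3% ± 1.98 in WT, without overlap. Both sides of the ratio of Mrc1 to Cx3cr1 thus differed as shares of these reads.

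Summed over the 9 genes, the level was 73.5, 49.5, 48.6, 52.7 and 53.0 CPM in Emx2 KO replicates 1 to 5, against 66.5, 67.6, 58.7, 72.3 and 76.5 CPM in WT replicates 1 to 5. Replicate 1 of Emx2 KO was second only to WT replicate 5, and the other 4 Emx2 KO libraries were below every WT library. The means were 55.5 ± 10.3 CPM in Emx2 KO and 68.3 ± 6.68 CPM in WT (SD, n = 5 each), a log2 ratio of -0.30. The log2 ratio was -0.42 without Emx2 KO replicate 1, -0.16 among large libraries, -0.47 among small ones, -0.12 within code 241022 and -0.37 within code 14922. Leaving that library out, 3 of the 9 genes passed as lower (Csf1r, C1qa and Mrc1), against 9.61% of the genes tested in that fit. The same 3 then had groups that did not overlap, against 9.03% of all genes. Emx2 KO replicate 1 was the highest Emx2 KO library for 8 of the 9 genes, so leaving it out lowers their Emx2 KO level by construction. The shares of all genes carry no such choice, so the counts beside them do not show enrichment.

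Emx2 KO replicate 1 also held more transcripts of other cell types than the other Emx2 KO libraries. The summed level of 18 endothelial genes was 646 CPM in it, against 394 to 553 CPM in the other Emx2 KO libraries and 488 to 636 CPM in WT. For 13 red blood cell genes the sum was 7747 CPM in it, against 2428 to 4435 CPM in the other Emx2 KO libraries and 2344 to 5736 CPM in WT. Pericyte, meningeal and platelet lists were also at their highest of all 10 libraries there. Choroid plexus genes were not, at 96.1 CPM in it, against 67.2 to 101 CPM in the other Emx2 KO libraries and 283 to 334 CPM in WT. The part of this difference between libraries in the levels of the 9 genes was not tested.

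**Figure D4:**
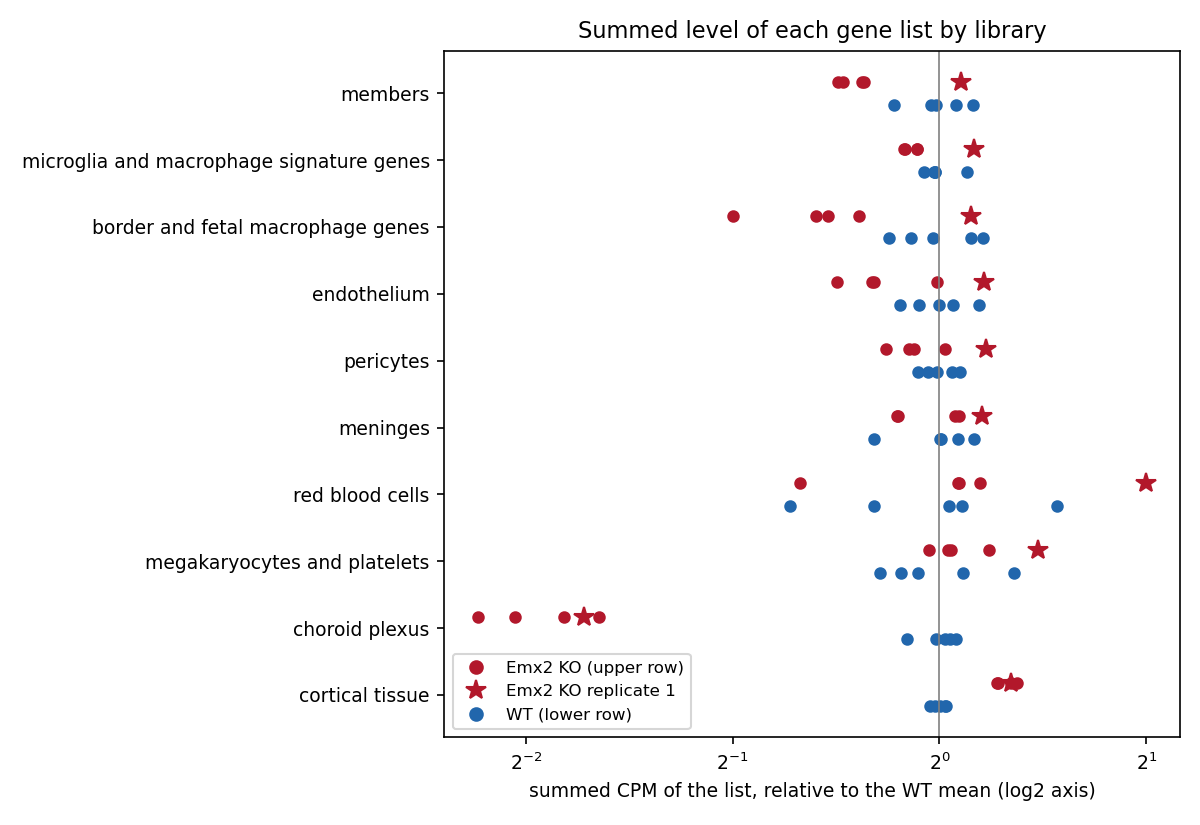
Summed CPM of each gene list in each library, divided by the WT mean of that list (horizontal axis, log2 scale, 1 at the vertical line), with Emx2 KO in the upper row in red, Emx2 KO replicate 1 as a star, and WT in the lower row in blue. The top row, named members, is the 9 genes. The star is the rightmost red point for the macrophage, vessel, meningeal, red blood cell and platelet lists, and the choroid plexus list is the only one whose red points all lie far left of the blue ones.

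Other genes of microglia and macrophages were read from the same fit. Over all genes tested in it 9.33% were lower and 12.9% were higher, the shares beside which each list's counts stand. Of 33 tested signature genes, 1 was higher, 0 were lower and 32 did not pass, with a median log2 fold change of -0.23. The log2 fold change was negative for 26 of the 33 and positive for 7, against 51.1% negative over all genes tested. Read in the same libraries, these genes are not independent signs. At an unadjusted p under 0.05, 2 of the 33 were lower, and DESeq2 and limma-voom called 0 lower. The 1 that rose was Coro1a, an actin regulator of leukocytes that neurons also express, at 29.0 ± 2.49 CPM in Emx2 KO and 24.1 ± 1.38 CPM in WT (log2 fold change 0.26 ± 0.07, edgeR adjusted p = 0.0167). P2ry12, a purinergic receptor of microglia, stood at 4.65 ± 0.614 CPM in Emx2 KO and 4.70 ± 1.78 CPM in WT, and Tmem119 at 4.01 ± 1.10 CPM in Emx2 KO and 4.0 ± 0.431 CPM in WT. The lysosomal glycoprotein gene Cd68 was at 14.4 ± 0.875 CPM in Emx2 KO and 15.4 ± 0.967 CPM in WT. Lcp1, an actin-bundling protein of leukocytes, was at 22.8 ± 3.99 CPM in Emx2 KO and 26.9 ± 2.57 CPM in WT. None of these 4 passed, and P2ry12 and Tmem119 were picked after their values had been seen. Summed, the signature genes stood at 141 ± 14.6 CPM in Emx2 KO and 148 ± 8.19 CPM in WT.

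Genes known from border and fetal macrophages were lower for 2 of 8 tested members and higher for 0, with a median of -0.42. Among all genes tested 9.33% were lower and 12.9% were higher. F13a1, the A subunit of coagulation factor XIII, had 16.0, 8.22, 7.05, 10.5 and 9.07 CPM in Emx2 KO replicates 1 to 5, against 20.7, 18.9, 12.3, 14.8 and 17.8 CPM in WT replicates 1 to 5. Lyve1, a hyaluronan receptor of perivascular macrophages and lymphatic vessels, had 7.68, 4.87, 3.71, 4.38 and 3.88 CPM in Emx2 KO replicates 1 to 5, against 7.16, 9.88, 6.73, 9.06 and 6.71 CPM in WT replicates 1 to 5. Both had the pattern of Mrc1, with Emx2 KO replicates 2 to 5 below every WT library and replicate 1 inside the WT range. F13a1 fell by 0.70 on the log2 scale (SE 0.22, edgeR adjusted p = 0.0398) and Lyve1 fell by 0.67 (SE 0.20, edgeR adjusted p = 0.0319). F13a1 was called in 12 and Lyve1 in 16 of 25 alternative fits. With all libraries, F13a1 lost its call with limma-voom, with size class as a block and without the filter on low counts, whereas Lyve1 kept its own in those fits.

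The list's scavenger receptor genes Colec12 and Stab1 and the adaptor gene Dab2 did not pass in the edgeR fit of all libraries. Colec12, which DESeq2 and limma-voom did call lower, was at 31.3 ± 13 CPM in Emx2 KO and 50.7 ± 7.27 CPM in WT, with a log2 fold change of -0.68 ± 0.25 (edgeR adjusted p = 0.0788). Stab1, which endothelium also expresses, was at 48.2 ± 11.5 CPM in Emx2 KO and 52.4 ± 10.2 CPM in WT. Dab2, an endocytic adaptor, was at 34.0 ± 10.8 CPM in Emx2 KO and 45.8 ± 5.68 CPM in WT. Emx2 KO replicate 1 was the highest Emx2 KO library in the summed level of this list, so leaving it out lowers the list by construction. Without it, 5 of 7 tested members were lower (Dab2, Cd38, Lyve1, Colec12 and F13a1), against 9.61% of all genes. In the large libraries alone 0 of 11 were (edgeR adjusted p, and 0 at an unadjusted p under 0.05), against 6.93% of all genes by adjusted p. The list also lost every call when Emx2 KO replicate 2, 3, 4 or 5 or WT replicate 2 or 4 was left out. The summed level of the list, in which Stab1, Colec12 and Dab2 had the highest means, was 93.0 to 207 CPM in Emx2 KO and 157 to 216 CPM in WT. Beside it, 0 of 18 endothelial genes passed with edgeR, DESeq2 or limma-voom, and 4 were lower at an unadjusted p under 0.05 (394 to 646 CPM summed in Emx2 KO and 488 to 636 CPM in WT). Emx2 KO replicate 1 had the highest endothelial sum too. Without it, 5 of these 18 were lower (Esam, Tek, Pecam1, Emcn and Kdr), against the same 9.61% of all genes. Of 14 meningeal genes 1 was higher and 5 were lower, with 680 to 906 CPM summed in Emx2 KO and 630 to 882 CPM in WT. Of 12 choroid plexus genes, whose epithelium such macrophages border, 10 were lower, with 67.2 to 101 CPM summed in Emx2 KO and 283 to 334 CPM in WT. The part of these tissues in the macrophage result was not tested.

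Among 17 transcription factor genes of the myeloid lineage, 3 were higher (12.9% of all genes were), 0 were lower (9.33%) and 14 did not pass. Sall1 and Sall3 were among those higher. Sall1 marks microglia among macrophages but is also a gene of neural progenitors. It stood at 383 ± 27.8 CPM in Emx2 KO and 302 ± 15.5 CPM in WT (log2 fold change 0.34 ± 0.05, edgeR adjusted p = 7.76e-04). Sall3, a related zinc finger gene, was at 56.8 ± 12.7 CPM in Emx2 KO and 21.8 ± 1.88 CPM in WT (1.38 ± 0.15). Irf8 and Runx1, needed for microglial development, did not pass, with -0.17 ± 0.21 and 0.04 ± 0.18.

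Of 11 tested genes in a list of ligands, receptors and survival signals, 1 was higher and 1 was lower. Csf1, a ligand of CSF1R, was at 18.2 ± 3.54 CPM in Emx2 KO and 15.7 ± 1.01 CPM in WT (log2 fold change 0.20 ± 0.12, edgeR adjusted p = 0.249). Il34, the other ligand, was too low to test, at 0.308 ± 0.222 CPM in Emx2 KO and 0.333 ± 0.216 CPM in WT. Cx3cl1, which encodes fractalkine, was at 8.55 ± 1.37 CPM in Emx2 KO and 10.8 ± 0.868 CPM in WT (-0.32 ± 0.12, edgeR adjusted p = 0.068). Tgfb2, a member of the growth factor family that maintains microglial identity, fell by 0.32 on the log2 scale to 36.4 ± 4.41 CPM in Emx2 KO, against 45.4 ± 4.29 CPM in WT (edgeR adjusted p = 0.021). Kitl, the ligand of the KIT receptor, was higher, at 95.6 ± 12.8 CPM in Emx2 KO and 56.0 ± 11.6 CPM in WT (0.77 ± 0.15, edgeR adjusted p = 0.00376).

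Genes that act with TREM2 and TYROBP were 1 higher and 1 lower of 10 tested. Syk, the kinase that TYROBP recruits, was higher, at 13 ± 1.98 CPM in Emx2 KO and 7.75 ± 1.93 CPM in WT (log2 fold change 0.75 ± 0.16, edgeR adjusted p = 0.00456). Tyrobp itself was far scarcer, at 0.879 CPM in Emx2 KO and 1.36 CPM in WT. Which cells the Syk reads came from was not tested. Apoe, a lipoprotein that binds TREM2 and that many other cells make, fell by 0.34 on the log2 scale to 59.1 ± 9.10 CPM in Emx2 KO, against 75.4 ± 8.16 CPM in WT (edgeR adjusted p = 0.0385). Apoe was called in 10 of 25 alternative fits, not including limma-voom or the size class block, and Syk in 22. Of 22 phagocytosis and lysosome genes, Psap and Tyro3 were higher, Lamp2 was lower and 19 did not pass. Emx2 KO replicate 1 had the highest summed level of that list. Without it, 7 genes of the list were lower, Gas6 and Axl among them, against 9.61% of all genes.

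Complement genes other than the C1q chains moved in both directions, 3 higher and 4 lower of 17 tested, against 12.9% and 9.33% of all genes. Masp1, a protease of the lectin pathway, fell by 0.88 on the log2 scale to 109 ± 19.7 CPM in Emx2 KO, against 201 ± 24.2 CPM in WT (edgeR adjusted p = 4.87e-04). Cd55, a membrane inhibitor, and C3ar1, the C3a receptor of macrophages, were also lower. C3ar1 was at 3.26 ± 0.530 CPM in Emx2 KO and 4.80 ± 1.07 CPM in WT, close to the threshold (edgeR adjusted p = 0.0496), and was called in 7 of 25 alternative fits. C1qbp, Serping1 and C1qtnf4 were higher.

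Markers of other blood cells gave little signal or overlapped between the genotypes. Of 18 genes of other leukocytes, 3 had enough reads to test, and those of monocytes, neutrophils and T cells, such as Ccr2, S100a8 and Cd3e, did not. Kit, which stem cells and mast cells carry, was the 1 that passed, at 62.6 ± 9.78 CPM in Emx2 KO and 81.9 ± 10.8 CPM in WT, while the mast cell gene Cma1 had 0 counts. Which cells the Kit reads came from was not tested. Kit passed in 13 of 25 alternative fits, and with title code as a block or with Y-linked expression as a covariate it did not. None of 6 platelet and 13 red blood cell genes passed with edgeR, DESeq2 or limma-voom, and 1 red blood cell gene was higher at an unadjusted p under 0.05.

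How the 9 genes varied together was read from log2 CPM after the mean of each genotype was removed, over the 10 libraries, as a description. The Pearson r of each gene with the sum of the other 8 was 0.86 for Csf1r, 0.83 for C1qc, 0.73 for Tyrobp, 0.71 for Cx3cr1, 0.71 for C1qb, 0.68 for Mrc1, 0.59 for C1qa, 0.46 for Aif1 and 0.42 for Trem2. These points share depth and the high values of Emx2 KO replicate 1. The summed signature genes had r = 0.91 with the 9 genes, the border macrophage genes 0.75, the red blood cell genes 0.84 and the choroid plexus genes 0.05. Outside the 9, the genes most like their sum were Gas6, Mrpl41 and Dkk3, each at r = 0.94. Gas6 encodes a ligand of the TAM receptors used in phagocytosis.

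Whether the genotype difference depended on the title code was tested in the 8 libraries of the codes 241022 and 14922. In code 241022 the Emx2 KO libraries were large and the WT libraries small, and in code 14922 the reverse held. This interaction therefore cannot be told apart from an effect of size class, and it gives no reading of the code by itself. None of the 9 genes passed (edgeR interaction, adjusted p under 0.05), against 1.64% of all genes tested. C1qa had the smallest p, with an interaction of 0.79 ± 0.29 on the log2 scale, 241022 minus 14922 (unadjusted p = 0.0243, edgeR adjusted p = 0.533).

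Over the other fits the number of the 9 genes called lower stayed between 0 and 3. C1qa and Mrc1 passed with DESeq2 (10.9% of all genes were lower in that fit), with total counts as the only scaling (13.6%) and with size class as a block (8.44%). Mrc1 alone passed with limma-voom (10.5%) and in the small libraries alone (1.65%). None passed without the filter on low counts (3.92%), in the large libraries alone (6.93%) or in code 241022 alone (1.54%). At an unadjusted p under 0.05 these 3 fits gave 3, 0 and 0 of the 9 as lower.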

How the data were processed

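The deposited values are raw read counts per Ensembl gene, not normalized. The submitters' processing notes list bcl2fastq 2.20, STAR 2.7.8a, featureCounts 1.6.3-p1 and, as builds, GRCm39 and the rat build rn6. Strand setting, annotation release and pooling are not given in the sources used here. No genome coordinates are given for genes, and promoter sequences are RefSeq's (GRCm38.p6). Exon lengths came from the GENCODE annotation of GRCm38.

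In all 20 pairs of libraries of 1 genotype the counts differed beyond sampling noise (9.06 to 23.7 chi-square units per gene), so none was merged. From the counts, genes were filtered with filterByExpr (minimum count 10), scaled by TMM and tested with edgeR 4.0.16 (R 4.3.3, robust quasi-likelihood F test, two-sided, genotype as the only term, Benjamini-Hochberg adjustment over 18163 genes, threshold 0.05). CPM used TMM-scaled totals. Standard errors came from the F statistic, and intervals are at 95%. The procedure was tested on simulated data. Symbols were matched for 52073 of 56748 identifiers.

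The 9 genes and the gene lists were chosen with earlier results of these data known, so no p is given for a list and none is adjusted over a list. Within each list the genes of highest level and those that passed with the smallest p were named. P2ry12, Tmem119, Spi1, Irf8, Runx1, Csf1, Il34, Cx3cl1, Cd55, C3ar1, Serping1 and Cd38 were added after their values were seen. The alternatives tried were DESeq2 1.42.0, limma-voom (limma 3.58.1), other scalings and filters, blocks for title code or size class, each class alone, Y-linked expression as a covariate, each library left out and, added later, a non-robust fit. Some genes of the lists are counted but not reported here by name.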

Additional observations from a re-analysis of the deposited data

Results flagged for a closer look

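In 4 of 38 groups of 5 libraries, 1 library stood apart, meaning that its distance to the nearest other library was over 0.71 of the whole range, and chance gives about 1 in 20. Emx2 KO replicate 1 was the highest of its group in Csf1r (ratio 0.746, 15.2 CPM against 11.9 in the next). It was also the highest in the summed level of the 9 genes (0.824, 73.5 CPM against 53.0) and in that of the 8 genes other than Mrc1 (0.815, 60.4 CPM against 45.5). These 3 share reads and are not separate signs. WT replicate 2 was the highest WT library in Mrc1 reads per Cx3cr1 read (0.761, 1.31 against 0.932), on the side away from Emx2 KO.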

How the results depend on the processing

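No paired analysis was possible because the replicate numbers only follow accession order and pair no libraries. Of the 9 genes, 1 passed with all libraries, 2 with total counts as the only scaling, DESeq2 or a size class block, 0 with no filter, in the large libraries or in code 241022 alone, and 0 to 3 when 1 library was left out (3 without Emx2 KO replicate 1). The count over all genes was 4039, against 626 in the small libraries, 530 in code 241022 and 1710 in code 14922, and 3072 to 3979 with 1 library left out. Of 117 tested genes in the wider macrophage lists 20 passed, against 3, 2 and 9 in those 3 subsets and 12 (without WT replicate 4) to 32 (without Emx2 KO replicate 1). Over all genes tested 22.2% passed with all libraries, and 3.56%, 2.85% and 8.96% did in those 3 subsets. Emx2 lost its call only in code 241022 (-0.49), and was -0.38 in the large libraries, where it passed. The split of calls depended on scaling, with 1694 lower of 4039, against 2245 of 4144 with upper-quartile scaling and 2464 of 4250 with total counts. These moved the median of all genes by -0.0362 and -0.0469, and all 9 genes stayed negative.

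Signs changed for 3 of the 9 genes, none of which passed. Cx3cr1 gave 0.00 without the filter, 0.01 with limma-voom, 0.03 in the large libraries, 0.11 in code 241022, 0.07 with the Y-linked covariate and -0.11 to 0.04 with 1 library left out. Aif1 gave 0.15 in the large libraries, 0.27 in code 241022 and -0.15 to 0.07 with 1 library left out, and C1qb gave 0.02 in code 241022. Mrc1 passed in 15 of 25 alternatives, also with the title code block (-0.72), and not without the filter (edgeR adjusted p = 0.0726). The causes were not tested. Trem2, Tyrobp and Aif1 had 10 to 62 reads per library, and their counting error (CV of 16.8% to 22.2%) was of similar size to their spread beyond counting (15.6% to 27.4%).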

Other observations

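Of 18 genes known from border and fetal macrophages, 10 had too few reads to test, and their counts summed over 5 libraries are given as values only. Fewer reads were found in Emx2 KO than in WT for Cd163, a haemoglobin scavenger receptor (5 in Emx2 KO, 18 in WT), Timd4, a phosphatidylserine receptor (6 in Emx2 KO, 17 in WT), Ms4a6c (21 in Emx2 KO, 38 in WT), Folr2, a folate receptor (38 in Emx2 KO, 56 in WT), Ms4a7 (23 in Emx2 KO, 28 in WT) and Clec10a (30 in Emx2 KO, 39 in WT). Ccl24 had 40 reads in Emx2 KO and 39 in WT, Cbr2 had 11 in Emx2 KO and 4 in WT, and Clec12a had 3 in Emx2 KO and 1 in WT. Cd209f had 0 reads in both.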
